A study of Homo sapiens and Mus musculus with 24 samples.

Results

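The SR proteins are splicing factors that carry a domain rich in arginine and serine, and the messenger RNAs of 10 of their genes were followed here through UPA-seq, a sequencing of RNA from UV-irradiated and nonirradiated cells. The genes were taken by symbol: SRSF1, SRSF2, SRSF3, SRSF4, SRSF5, SRSF6, SRSF7, SRSF9, SRSF10 and SRSF11 in human cells, and the genes of the same symbol (Srsf1 and so on) in mouse cells. They are 10 of the 58381 genes counted in the human samples and 10 of the 53715 counted in the mouse samples, and all 10 passed the expression filter in each of the 4 cell types.

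The study asked which RNAs are held so tightly by proteins that UV light ties them to a protein. Crosslinked RNA leaves the aqueous phase when cells are extracted with phenol and chloroform, so a lower level in the aqueous phase after UV is the readout. RNA of the aqueous phase was sequenced after removal of ribosomal RNA, from 3 samples with UV and 3 without it in each cell type (24 samples). A lower level after UV cannot be told apart from a smaller amount of the RNA by these counts alone, nor can fewer cells of a type be told apart from less RNA per cell.

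The cell types were HepG2, a human line from a liver cancer, HEK293, a human embryonic kidney line, Neuro2a, a mouse neuroblastoma line, and HippCulture, a primary culture of hippocampal neurons from E16.5 mouse embryos. The labels name no engineered allele, and within a cell type the groups differed by UV. Per the study's methods, the hippocampal cells came from C57/BL6NCr mice and, irradiated or not, were given AraC to remove glia. The study's methods name the kidney cells HEK293T where the sample labels say HEK293, and they give HiSeq4000 as the sequencer of HepG2 and HiSeq2500 as that of the other cell types. The study calls its replicates biological, but nothing in the labels says that they came from separate cultures or animals, so the p-values below measure the spread between these samples.

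SR proteins bind exonic sequences through RNA recognition motifs and help the spliceosome to find splice sites through the arginine and serine rich domain. That domain is phosphorylated by the SRPK kinases in the cytoplasm, which lets transportin carry the proteins into the nucleus, and by the CLK kinases in the nucleus. SR protein genes are known for controlling their own output. They hold highly conserved alternative exons with an early stop codon, often called poison exons, and introns that can be retained, so that part of their transcripts is degraded by nonsense-mediated decay or stays in the nucleus.

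These exons are part of what was counted for a gene, and the conserved ones are shown because they carry the feature the family is known for. In the GENCODE annotation, all 10 human genes have at least 1 transcript of the nonsense-mediated decay class and 9 have a retained-intron transcript, against 9 and 8 of the 10 mouse genes. Internal exons of decay-class transcripts that overlap no exon of a coding transcript numbered 16 in 7 human genes and 9 in 5 mouse genes. They were 62 to 456 bases long in human and 109 to 460 in mouse. Transcripts of other classes were not checked for them, and overlapping forms, such as 449 and 276 bases in SRSF7, count separately. Some, such as the SRSF10 exon of 363 bases, do not hold the annotated stop codon of their transcript. All 16 human ones and 8 of the 9 mouse ones lie in exons that the authors' annotation counted. The exception is the 460-base exon of mouse Srsf7, whose human counterpart of 449 bases was counted. The longest in human is in SRSF3, with its first stop codon in frame from base 32. The 456 bases are identical in the human and the mouse genome. The sequences below run 5′ to 3′ on the gene's strand, with the first in-frame stop codon in capitals.
SRSF3, first 200 of 456 bases, chr6:36599821-36600020 (hg38, plus strand) and chr17:29039454-29039653 (mm10, plus strand): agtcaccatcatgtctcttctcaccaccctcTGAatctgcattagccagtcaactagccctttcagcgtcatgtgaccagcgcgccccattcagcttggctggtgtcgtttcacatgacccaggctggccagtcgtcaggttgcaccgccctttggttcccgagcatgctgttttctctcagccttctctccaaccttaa
SRSF11, 109 bases, chr1:70231095-70231203 (hg38, plus strand) and chr3:158024123-158024231 (mm10, minus strand): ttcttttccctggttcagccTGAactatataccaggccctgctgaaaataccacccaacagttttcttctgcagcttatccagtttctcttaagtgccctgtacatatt
SRSF11, 117 bases, chr1:70231859-70231975 (hg38, plus strand) and chr3:158023243-158023359 (mm10, minus strand): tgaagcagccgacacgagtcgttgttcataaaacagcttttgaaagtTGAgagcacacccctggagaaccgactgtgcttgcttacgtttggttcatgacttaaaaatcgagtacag
SRSF6, 268 bases, chr20:43459153-43459420 (hg38, plus strand): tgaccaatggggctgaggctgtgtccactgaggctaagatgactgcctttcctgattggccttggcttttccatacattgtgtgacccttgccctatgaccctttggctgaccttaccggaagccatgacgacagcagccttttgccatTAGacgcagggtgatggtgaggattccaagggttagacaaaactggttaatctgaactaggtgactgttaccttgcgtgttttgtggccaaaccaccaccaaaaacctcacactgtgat

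Both SRSF11 exons are also the same in human and mouse, base for base. The SRSF6 exon is shown because SRSF6 had the lowest UV log2 change of the members in both human lines. In the current data a read on a poison exon, a retained intron annotated as exon or a coding exon adds to the same count, so the UV change of a gene is that of all its transcripts together.

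Totals on genes ran from 6910907 to 53511592 counts per sample, with HepG2 the most deeply sequenced. The 10 most abundant genes of a sample took 9.43% to 32.4% of the counts without UV and 21% to 52.4% with UV. Levels are therefore given as CPM, counts scaled to a common library total, after TMM scaling, which sets the bulk of genes to no change, and every UV change is relative to that bulk. With scaling by library size alone, the median change of all genes tested (log2) was -1.39, -0.84, -1.33 and -0.59 for HepG2, HEK293, Neuro2a and HippCulture, against -0.080, -0.077, -0.14 and -0.042 with TMM. All 8 hepatocyte markers were detected at 1 CPM or more in HepG2, and all 8 neuronal markers in HippCulture. Neuro2a had 5 of 8 neuronal and 4 of 6 sympathetic neuroblast markers at that level. HippCulture also held astrocyte markers (4 of 4, summing to 572 to 672 CPM before TMM scaling, against 3410 to 3813 for the neuronal ones). It had 4 of 4 oligodendrocyte markers too, summing to 39.6 to 50.2 CPM. HEK293 had 5 of 8 neuronal and 4 of 4 astrocyte markers at 1 CPM or more, summing to 42.4 to 74.1 and 76.8 to 95.02 CPM. Detection of neuronal or astrocyte markers at 1 CPM alone therefore does not mark a cell type as neural. The hepatocyte markers reached that level in HepG2 only. Nonirradiated HepG2 replicate 1 and both HEK293 libraries numbered 1 stood apart from their groups. Values without them are given where they change a member's call, and for some of the other named genes.

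After UV the mRNAs of the SR proteins were mostly lower. In HepG2, 6 of the 10 fell, 3 rose and 1 did not pass the test at an adjusted p of 0.05 (edgeR's quasi-likelihood test, Benjamini-Hochberg adjustment over all genes tested). Of all 20117 genes tested there, 40.7% fell and 38.1% rose. In HEK293, 5 members fell and none rose, against a background of 26.4% and 24.2% of 20472 genes. In Neuro2a, 9 fell and none rose, against 33% and 28.9% of 17425 genes, and in HippCulture, 8 fell and none rose, against 25.9% and 26.1% of 18488 genes.

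The median log2 change of the 10 members was -0.65, -0.51, -0.94 and -0.35 in HepG2, HEK293, Neuro2a and HippCulture, while that of all protein-coding genes tested was 0.17, 0.011, -0.035 and 0.053. SRSF1, SRSF5, SRSF6, SRSF10 and SRSF11 fell in all 4 cell types, a pattern found in 14.4% of the 9470 protein-coding genes tested in all of them. SRSF2, SRSF3 and SRSF4 fell in 2 cell types each, and SRSF7 and SRSF9 in 1 each, so no member fell in none, as 52.7% of those genes did. SRSF3, SRSF7 and SRSF9 rose in 1 cell type and fell in another, as did 8.97% of those genes. These tallies come from the main fits, which do not pair samples. With HEK293 samples paired by replicate number in the fit (a block), SRSF2 also fell there and SRSF3 and SRSF7 also rose. SRSF2 also fell in HepG2 without nonirradiated replicate 1. The shares of genes with each pattern were not computed for these alternatives. With library size alone in place of TMM, all 10 members fell in HepG2 and none rose, against 15838 and 1722 of 20117 genes. The 3 rises there therefore hold only relative to the bulk of genes.

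**Figure D1:**
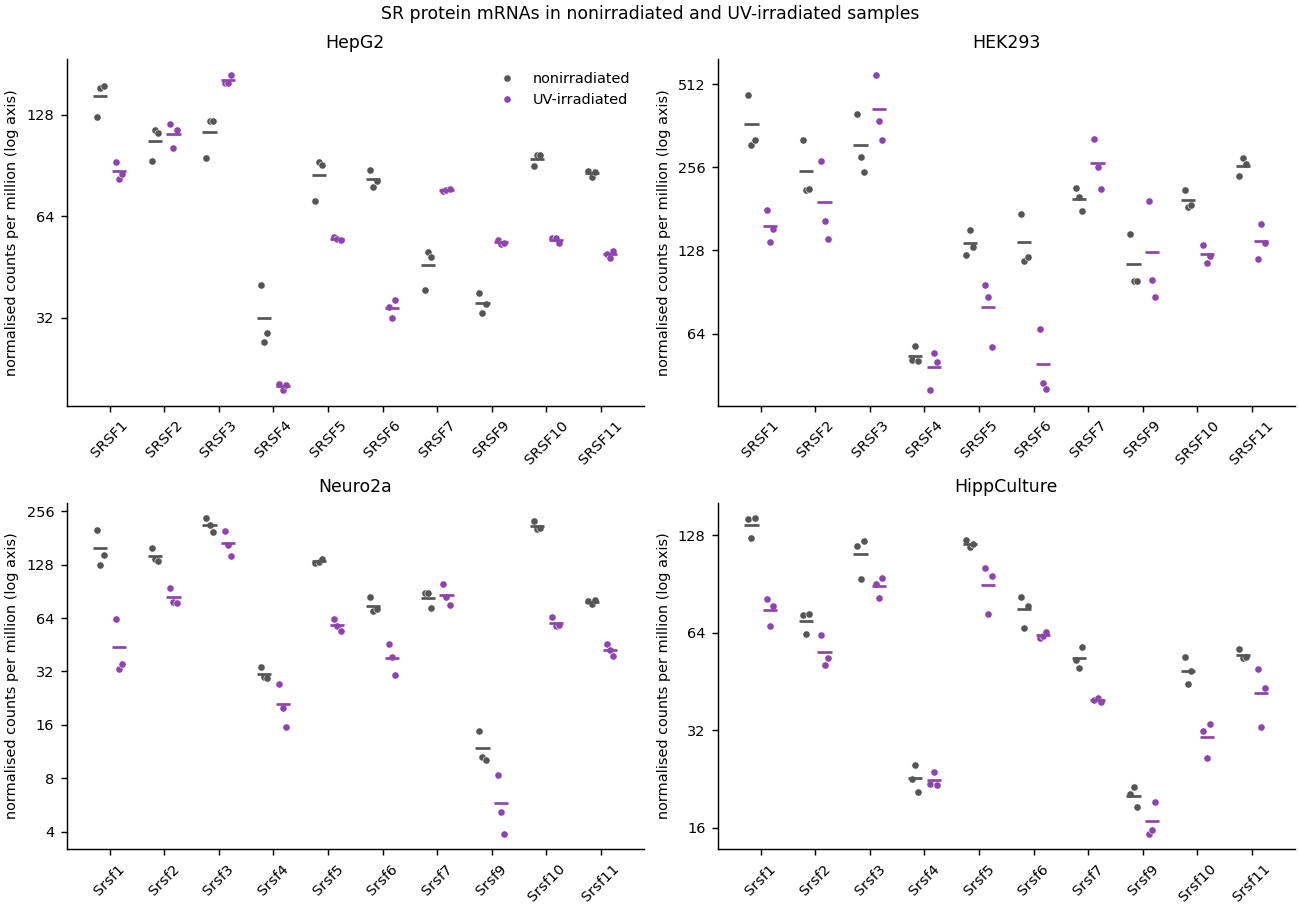
Level of each SR protein mRNA in each sample, in TMM-scaled CPM (log axis), for the 4 cell types, with a point for each of the 3 nonirradiated and 3 UV-irradiated samples and a line at each mean. The irradiated points of SRSF1, SRSF5, SRSF6, SRSF10 and SRSF11 lie below the nonirradiated ones in every cell type, while those of SRSF3, SRSF7 and SRSF9 lie above them in HepG2.

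SRSF1, SRSF9, SRSF4, SRSF5 and SRSF6 carry a pair of RNA recognition motifs. SRSF1 (chr17:58003360-58007346 in hg38, chr11:88047373-88053755 in mm10) is the best studied of them, a splicing activator that shuttles between nucleus and cytoplasm and also acts in translation. In HepG2 its level was 126, 154 and 156 CPM in the nonirradiated and 92.9, 82.9 and 85.4 CPM in the irradiated samples (log2 change -0.74, standard error 0.096, edgeR adjusted p = 0.000105). In HEK293 it went from 469, 309 and 322 to 179, 138 and 153 CPM (log2 change -1.23, standard error 0.19, edgeR adjusted p = 0.000775). The groups did not overlap in either line. Neuro2a had 202, 127 and 146 CPM of Srsf1 without UV and 63.5, 33.1 and 35.1 CPM with it, a 3.59-fold fall and the most negative log2 change of any member in any cell type (log2 change -1.84, standard error 0.22, edgeR adjusted p = 5.65e-06). HippCulture had 143, 126 and 144 and 81.1, 67.2 and 77.6 CPM (log2 change -0.87, standard error 0.090, edgeR adjusted p = 1.03e-07). In both mouse cell types every irradiated sample lay below every nonirradiated one. Of the exon bases of human SRSF1, 13.2% are shared with a gene on the other strand and 9.91% with a readthrough gene on the same strand, and reads there were counted for both.

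SRSF9, the close relative of SRSF1 with a short arginine and serine rich tail, went its own way. It rose in HepG2, from 37.95, 33.1 and 35.2 to 54.3, 53.02 and 53.3 CPM (log2 change 0.60, standard error 0.072, edgeR adjusted p = 6.25e-05). In Neuro2a, Srsf9 fell from 14.9, 10.5 and 10.2 to 8.38, 5.14 and 3.90 CPM (log2 change -1.01, standard error 0.25, edgeR adjusted p = 0.00274). Groups were apart in both, in opposite directions, but human and mouse values come from different annotations and were not tested against each other. HEK293 had 146, 99.2 and 98.99 CPM without and 193, 100.01 and 86.8 CPM with UV, which overlapped (log2 change 0.14, standard error 0.30, edgeR adjusted p = 0.71). In HippCulture the values were 20.4, 21.4 and 18.5 and 15.4, 15.7 and 19.3 CPM (log2 change -0.25, standard error 0.12, edgeR adjusted p = 0.1). There Srsf9 passed as a fall with at least 10 counts in every sample (-0.34, edgeR adjusted p = 0.0254). It also passed without irradiated replicate 3 (-0.37, adjusted p = 0.0444). Mouse Srsf9 was the member with the fewest reads, 19 to 191 counts per Neuro2a sample. The human gene shares 46.2% of its exon bases with GATC on the other strand, and no strand option was used in the counting, so reads of the 2 genes cannot be told apart there.

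SRSF5 and SRSF6, which are close to each other in structure, fell throughout. SRSF6 (chr20:43457928-43464247 in hg38, chr2:162931528-162937121 in mm10) was at 87.7, 78.02 and 81.4 CPM without UV and 34.5, 31.9 and 36.03 CPM with it in HepG2 (log2 change -1.27, standard error 0.078, edgeR adjusted p = 9.47e-07). In HEK293 it went from 173, 117 and 121 to 66.5, 42.3 and 40.4 CPM, a 2.76-fold fall (log2 change -1.47, standard error 0.23, edgeR adjusted p = 0.000807). No sample of one group reached the other in these lines. Neuro2a went from 83.7, 69.9 and 72.3 to 45.8, 38.5 and 30.6 CPM (log2 change -0.97, standard error 0.13, edgeR adjusted p = 2.10e-05). HippCulture changed least, from 82.5, 66.4 and 77.6 to 61.7, 62.7 and 64.4 CPM (log2 change -0.26, standard error 0.091, edgeR adjusted p = 0.0203). The groups were apart there too, but the call was lost without nonirradiated replicate 1 or 3.

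SRSF5 (chr14:69726900-69772005 in hg38, chr12:80945504-80950507 in mm10) went from 71.1, 92.6 and 90.8 to 55.5, 54.9 and 54.5 CPM in HepG2 (log2 change -0.63, standard error 0.10, edgeR adjusted p = 0.000435). In HEK293 the levels were 123, 152 and 132 and 95.8, 87.00 and 57.3 CPM (log2 change -0.77, standard error 0.20, edgeR adjusted p = 0.0102). Both changes put every irradiated sample under every nonirradiated one. Neuro2a showed the steepest change of Srsf5, from 132, 133 and 138 to 63.3, 57.8 and 54.4 CPM (log2 change -1.20, standard error 0.095, edgeR adjusted p = 1.09e-07). HippCulture, where Srsf5 had the highest level per exon length of the family, went from 123, 117 and 120.3 to 101, 73.01 and 95.4 CPM (log2 change -0.41, standard error 0.098, edgeR adjusted p = 0.00146).

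SRSF4, the member with the longest arginine and serine rich domain of this structural group, fell in HepG2 and Neuro2a. HepG2 had 40.1, 27.02 and 28.8 CPM without and 20.4, 19.6 and 20.2 CPM with UV (log2 change -0.67, standard error 0.14, edgeR adjusted p = 0.00197). The first nonirradiated value belongs to the library that stood apart, and the fall remained without it. Neuro2a went from 34.02, 29.9 and 29.3 to 27.2, 19.9 and 15.6 CPM (log2 change -0.56, standard error 0.16, edgeR adjusted p = 0.00723). In HEK293 the change was -0.14 (edgeR adjusted p = 0.45) and in HippCulture -0.026 (adjusted p = 0.87). Mouse Srsf4 shares 43.0% of its exon bases with Gm12992 on the other strand.

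**Figure D2:**
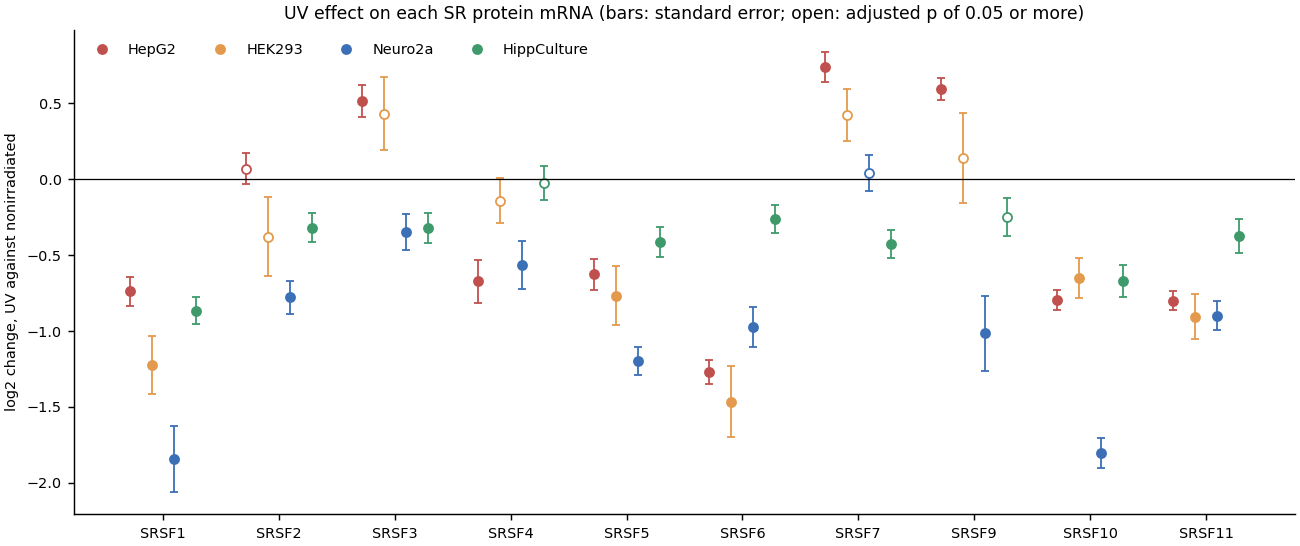
Log2 change of each SR protein mRNA with UV (irradiated against nonirradiated, TMM scaled, 3 samples a group), with a point per cell type, bars of 1 standard error and open symbols where the adjusted p is 0.05 or more. All 4 points are below 0 and filled for SRSF1, SRSF5, SRSF6, SRSF10 and SRSF11, and the points of SRSF3, SRSF7 and SRSF9 lie on both sides of 0.

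SRSF2, SRSF3 and SRSF7 carry a single RNA recognition motif. SRSF3 and SRSF7 are adaptors for mRNA export, and SRSF7 adds a zinc knuckle to its motif. SRSF3 (chr6:36594353-36605600 in hg38, chr17:29032673-29043366 in mm10), whose poison exon is printed above, rose in HepG2 from 95.1, 123 and 123 to 159.7, 159 and 168 CPM (log2 change 0.52, standard error 0.10, edgeR adjusted p = 0.00157). Without nonirradiated replicate 1, which stood apart, the rise was 0.33 on the log2 scale and kept its call. In HEK293 it was at 399.8, 279 and 247 CPM without and 553, 377 and 320.4 CPM with UV (log2 change 0.43, standard error 0.24, edgeR adjusted p = 0.16). The HEK293 groups overlapped, since the libraries numbered 1 were higher than the others in both groups. In HEK293 each sample correlated best with the sample of its own replicate number, so the numbers may pair the samples. With the number as a block the change was 0.43 (edgeR adjusted p = 1.04e-06), and without both libraries numbered 1, an alternative chosen after seeing the data, it was 0.41 (adjusted p = 0.00628). In Neuro2a, Srsf3 went from 234, 215 and 197 to 199, 164 and 144 CPM (log2 change -0.35, standard error 0.12, edgeR adjusted p = 0.0212). These groups overlapped, and the call was lost in 4 of the 6 fits that left out 1 sample. In HippCulture it went from 118, 93.5 and 123 to 90.5, 82.1 and 94.5 CPM (log2 change -0.32, standard error 0.098, edgeR adjusted p = 0.00952).

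SRSF7 (chr2:38743599-38751494 in hg38, chr17:80200089-80207305 in mm10) had the largest rise of any member, in HepG2, from 38.8, 50.2 and 48.6 to 76.3, 76.5 and 76.9 CPM or 1.67-fold (log2 change 0.74, standard error 0.099, edgeR adjusted p = 0.000122). HEK293 had 215, 199.6 and 177 CPM without and 324, 257 and 213 CPM with UV (log2 change 0.42, standard error 0.17, edgeR adjusted p = 0.0663), and a log2 change of 0.41 (adjusted p = 5.38e-06) with the replicate number as a block. Without both HEK293 libraries numbered 1 the log2 change was 0.32 (edgeR adjusted p = 0.0267). The Neuro2a values overlapped, at 88.9, 89.03 and 72.99 and 99.1, 83.7 and 75.6 CPM (log2 change 0.043, standard error 0.12, edgeR adjusted p = 0.77). In HippCulture Srsf7 fell from 52.8, 49.8 and 57.6 to 39.7, 40.3 and 39.2 CPM (log2 change -0.43, standard error 0.091, edgeR adjusted p = 0.000536). It was the one member that fell in the neuronal culture and not in another cell type. With at least 10 counts required in every sample, the HepG2 rises were smaller, with log2 changes of 0.47 for SRSF7, 0.32 for SRSF9 and 0.25 for SRSF3, and kept their calls.

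SRSF2, a component of nuclear speckles, was at 93.2, 116 and 113 CPM without and 119.9, 102 and 115 CPM with UV in HepG2 (log2 change 0.069, standard error 0.10, edgeR adjusted p = 0.54). Without nonirradiated replicate 1, the library that stood apart, its change there was -0.094 with an adjusted p of 0.0284, on the other side of 0, which makes 7 members lower, against 44.4% of all genes in that fit. In HEK293 the levels were 320.4, 212 and 214 and 271, 164 and 140.3 CPM (log2 change -0.38, standard error 0.26, edgeR adjusted p = 0.25). With the replicate number as a block that change was -0.41 (adjusted p = 7.63e-06), which brings the HEK293 count to 6 lower and 2 higher, against 35.3% and 32.7% of all genes with the block. Without both HEK293 libraries numbered 1 it was -0.48 (edgeR adjusted p = 0.00133). That fit also had 6 members lower and 2 higher, against 29.7% and 29.6% of all genes. Srsf2 fell in Neuro2a, from 159.8, 137 and 135 to 95.01, 79.4 and 77.6 CPM (log2 change -0.78, standard error 0.11, edgeR adjusted p = 2.74e-05). In HippCulture it went from 72.4, 63.5 and 73.3 to 62.7, 50.8 and 53.6 CPM (log2 change -0.32, standard error 0.095, edgeR adjusted p = 0.00813). Human SRSF2 shares 36.7% of its exon bases with MFSD11 on the other strand, and mouse Srsf2 15.6% with Mettl23 and 9.74% with Mfsd11.

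SRSF10 and SRSF11 are the atypical members, SRSF10 being a repressor of splicing when it is dephosphorylated and SRSF11 a binder of the U2AF splice site factor. SRSF10 (chr1:23964804-23980927 in hg38, chr4:135855747-135869908 in mm10) went from 89.99, 97.4 and 97.2 to 55.2, 55.3 and 53.3 CPM in HepG2 (log2 change -0.80, standard error 0.066, edgeR adjusted p = 5.50e-06). In HEK293 it went from 212, 185 and 187 to 133, 116 and 123 CPM (log2 change -0.65, standard error 0.13, edgeR adjusted p = 0.00298). As for SRSF1, SRSF5, SRSF6 and SRSF11, the groups of SRSF10 were apart in all 4 cell types. Neuro2a fell 3.50-fold, from 226, 203 and 205 to 65.02, 57.8 and 58.3 CPM (log2 change -1.81, standard error 0.098, edgeR adjusted p = 4.10e-09). HippCulture fell from 53.7, 44.4 and 48.6 to 31.7, 26.2 and 33.3 CPM (log2 change -0.67, standard error 0.11, edgeR adjusted p = 2.30e-05).

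SRSF11 (chr1:70205682-70253052 in hg38, chr3:158010473-158036639 in mm10) fell in HepG2 from 87.2, 83.9 and 86.9 to 49.5, 48.2 and 50.4 CPM (log2 change -0.80, standard error 0.062, edgeR adjusted p = 3.72e-06). In HEK293 it fell from 238, 277 and 263 to 119.5, 159 and 136 CPM (log2 change -0.91, standard error 0.15, edgeR adjusted p = 0.000981). Neuro2a went from 79.6, 76.8 and 80.9 to 46.01, 42.2 and 39.02 CPM (log2 change -0.90, standard error 0.097, edgeR adjusted p = 2.12e-06). HippCulture went from 56.99, 53.6 and 53.7 to 49.4, 32.7 and 43.3 CPM (log2 change -0.38, standard error 0.11, edgeR adjusted p = 0.008), and the change was -0.24 without irradiated replicate 2, where the call was kept.

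The groups did not overlap, with the irradiated lower, for 6, 5, 8 and 7 members in HepG2, HEK293, Neuro2a and HippCulture, against 42.8%, 32.1%, 37% and 30.8% of all genes tested. The irradiated group was higher without overlap for 3 members in HepG2 and for none elsewhere, against 39.6%, 27.1%, 30.4% and 29.3%. An exact permutation test of a single mRNA over 6 samples cannot give a two-sided p below 0.1, which is the value of every group pair without overlap. The count of 8 in HippCulture went to 5 without nonirradiated replicate 1 or replicate 3, when Srsf2, Srsf3 and Srsf6 lost their calls. In HippCulture the neuronal markers summed to 3410 to 3813 CPM without UV and 1768 to 2304 with it, before TMM scaling, and the astrocyte markers to 572 to 672 and 482 to 618. With library size alone the median log2 change of all genes tested in HippCulture was -0.59. These marker sums are therefore not relative to the bulk of genes, as the members' changes are. The part of the marker changes in the members' values was not tested.

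The genes that act on or with SR proteins were taken from lists. Their counts stand against the shares of all genes given above, where the genes that fell made up 40.7%, 26.4%, 33% and 25.9% and those that rose 38.1%, 24.2%, 28.9% and 26.1% (HepG2, HEK293, Neuro2a, HippCulture). Of the 8 kinase and import genes, 2 fell and 1 rose in HepG2, 7 fell and none rose in HEK293, 4 fell and none rose in Neuro2a and 3 fell and none rose in HippCulture. The shares that fell were 25%, 87.5%, 50% and 37.5% in that order, below the background for HepG2 alone. Without nonirradiated replicate 1, 6 of the 8 fell in HepG2 (75%), against 44.4% of all genes in that fit. CLK4, a nuclear kinase of SR proteins, fell in all 4 cell types. Its log2 change was -0.57 for HepG2, -0.86 for HEK293, -0.61 for Neuro2a and -0.68 for HippCulture (adjusted p from 3.80e-05 to 0.00205). CLK1 fell in HEK293 (-0.37), Neuro2a (-0.56) and HippCulture (-0.50), with -0.20 in HepG2 (adjusted p = 0.0953). Its HEK293 call remained in 1 of the 6 fits without 1 sample, and in HepG2 it was -0.39 (adjusted p = 2.04e-12) without nonirradiated replicate 1 and also passed with DESeq2 and with each other filter. CLK2 fell in HEK293 (-0.51). CLK3 rose in HepG2 (0.32), but was 0.042 there (adjusted p = 0.67) with at least 10 counts in every sample. Of the cytoplasmic kinases, SRPK1 fell in HepG2 (-0.62) and HEK293 (-0.85), while SRPK2 fell in HEK293 (-0.56), Neuro2a (-0.99) and HippCulture (-0.65). SRPK2 was -0.17 in HepG2 (edgeR adjusted p = 0.0656), and passed there with DESeq2 and without nonirradiated replicate 1.

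Among 21 SR-related splicing coactivators, 12 fell and 4 rose in HepG2, while HEK293 had 8 and 1, Neuro2a 14 and 2 and HippCulture 12 and 1, with median log2 changes of -0.38, -0.39, -0.41 and -0.35. The share that fell, 57.1%, 38.1%, 66.7% and 57.1%, lay above the background in each. SON, a large scaffold of nuclear speckles, fell in all 4 cell types (-0.98, -0.69, -1.06 and -0.35 in the same order). Its HEK293 call was lost in 4 of the 6 fits without 1 sample, with -0.42 without nonirradiated replicate 1, and with DESeq2's size factors (adjusted p = 0.0546). SRRM2, the other speckle scaffold, fell in HepG2 (-1.44), Neuro2a (-1.47) and HippCulture (-0.29), but its 3 nonirradiated HepG2 values were 371, 114 and 133 CPM, the first from the library that stood apart. Without it the change was -0.77, and the call was kept. The HippCulture call of Srrm2 was lost without nonirradiated replicate 1 or 3. TRA2A and TRA2B are sequence-specific activators related to SR proteins. TRA2A fell in HepG2 (-0.97), Neuro2a (-0.41) and HippCulture (-0.49). Its Neuro2a call remained in 2 of the 6 fits without 1 sample and the change was -0.23 (adjusted p = 0.14) without irradiated replicate 3. With the replicate number as a block, TRA2A (-0.48, adjusted p = 6.18e-06) and SRRM2 (-0.50, adjusted p = 1.65e-07) also fell in HEK293. The list then had 11 lower and 4 higher there, against 35.3% and 32.7% of all genes with the block. TRA2B passed in no cell type in the main fits, with log2 changes from -0.14 to 0.11 and adjusted p of 0.18 or more. With at least 10 counts in every sample it passed as a fall in HepG2 (-0.16, edgeR adjusted p = 0.0392). Under that filter it also fell in Neuro2a (-0.23, adjusted p = 0.0223) and HippCulture (-0.23, adjusted p = 0.0351).

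For the 22 hnRNP genes, RNA-binding proteins that often oppose SR proteins at exons, 7 were lower and 8 higher in HepG2, and HEK293 had 8 and 1, Neuro2a 15 and 2 and HippCulture 13 and 2. The share that fell was 31.8% in HepG2, below the background, and 36.4%, 68.2% and 59.1% in the others, above it. Without nonirradiated replicate 1, the HepG2 share was 45.5%, against 44.4% of all genes in that fit. HNRNPA1, the classic antagonist of SRSF1, rose in HepG2 (0.74), HEK293 (0.54) and Neuro2a (0.27) relative to the bulk of genes, and its change was negative in every cell type with library size alone. The Neuro2a call of Hnrnpa1 remained in the blocked fit and in 1 of the 6 fits without 1 sample, and was lost with DESeq2 and with each other filter (adjusted p from 0.0528 to 0.27). HNRNPK fell in Neuro2a (-0.58) and HippCulture (-0.24), the second call being lost without nonirradiated replicate 1 or 3, and with the replicate number as a block it also fell in HEK293 (-0.21, adjusted p = 0.0106). The 10 nonsense-mediated decay factors gave 2 lower and 3 higher in both HepG2 and HippCulture, 2 and 1 in HEK293 and 6 and 2 in Neuro2a. The share that fell was 20% outside Neuro2a, below the background, and 60% in Neuro2a. Without nonirradiated replicate 1, 4 of the 10 decay factors fell in HepG2 (40%), against 44.4% of all genes in that fit. With the replicate number as a block, the hnRNP genes were 10 lower and 6 higher in HEK293 and the decay factors 5 and 2. The shares that fell were then 45.5% and 50%, above the 35.3% of all genes in that fit, where 32.7% rose. SMG1, the kinase of that pathway, fell in all 4 (-1.46, -0.89, -1.21 and -0.59). UPF1, its helicase, fell in Neuro2a (-0.98) and, with the block, in HEK293 (-0.35, adjusted p = 0.00062). It was -0.20 in HepG2 (edgeR adjusted p = 0.0773) and -0.32 in HippCulture (edgeR adjusted p = 0.0628). Both passed as falls with DESeq2's size factors and with each other filter, and the HippCulture change also with the block. Of the other SR family genes, SRSF8 fell in HEK293 (-0.53), a call lost in 4 of the 6 fits without 1 sample, and SRSF12 fell in HepG2 (-1.34) and HippCulture (-0.57). Without nonirradiated replicate 1, SRSF8 also fell in HepG2 (-0.17, edgeR adjusted p = 0.0257). Without both HEK293 libraries numbered 1, SRSF12 rose in HEK293 (0.40, edgeR adjusted p = 0.0283).

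**Figure D3:**
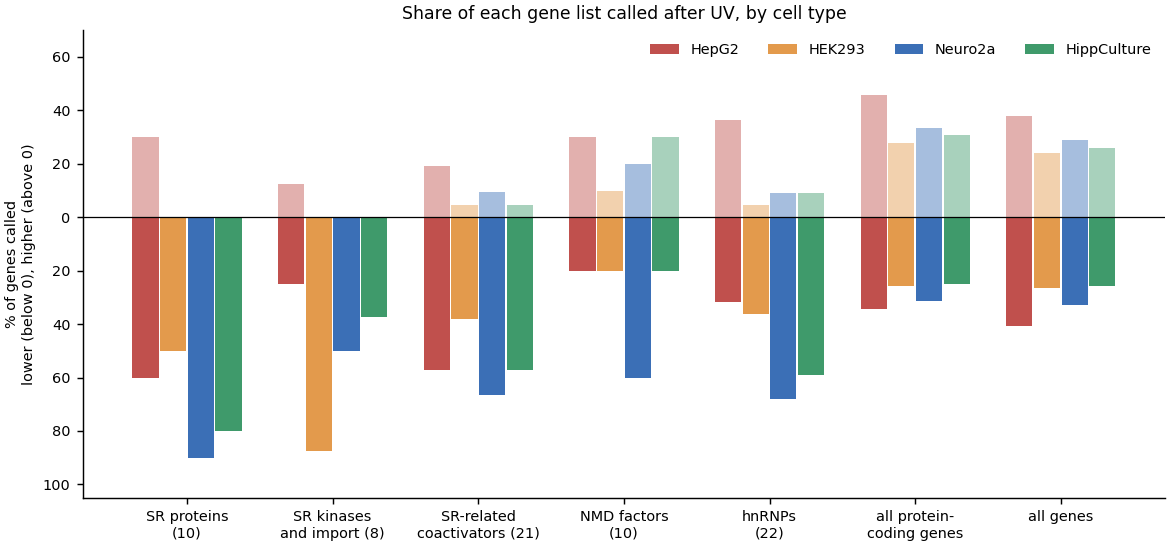
Share of the genes of each list called after UV (%), with fallen genes as full bars below 0 and risen genes as pale bars above it, a bar per cell type, the number of genes in a list in brackets, and all protein-coding genes and all genes tested beside them. The SR protein bars reach 60%, 50%, 90% and 80% below 0 in HepG2, HEK293, Neuro2a and HippCulture, and 30% above 0 in HepG2 only.

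The 3 protein-coding genes outside the family whose 4 UV changes were closest to the members' medians, by Euclidean distance over the 4 cell types among 9460 genes, were BAZ1B (distance 0.051), FANCD2 (0.12) and ANKIB1 (0.13).

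Whether UV acted differently between 2 cell types was tested as the interaction in a joint fit of the 12 samples of a species. In mouse, 7 members had a higher log2 change in HippCulture than in Neuro2a, which for these members is a smaller fall, and 1 had a lower one, against a background of 16.1% and 8.41% of 14973 genes. The median difference of the 10 members was 0.63, and that of all genes 0.14. Srsf10 differed most, by 1.14 (standard error 0.15, edgeR adjusted p = 3.51e-05), followed by Srsf1, by 0.98 (standard error 0.26, edgeR adjusted p = 0.00891). Srsf5 differed by 0.79 (standard error 0.15, edgeR adjusted p = 0.000976) and Srsf6 by 0.71 (standard error 0.17, edgeR adjusted p = 0.00475). These 4 kept their calls with DESeq2's size factors, with DESeq2 as the test and without any 1 sample.

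Srsf9, Srsf11 and Srsf2 also had a higher change in HippCulture, by 0.77 (standard error 0.28, edgeR adjusted p = 0.049), 0.53 (standard error 0.16, edgeR adjusted p = 0.0219) and 0.46 (standard error 0.16, edgeR adjusted p = 0.0354), and lost the call with DESeq2's size factors or test, which left 4 members higher. The count was also 4 without Neuro2a irradiated replicate 3, HippCulture irradiated replicate 1 or HippCulture irradiated replicate 3. Srsf7 differed the other way, by -0.47 (standard error 0.16, edgeR adjusted p = 0.0327). It lost the call in 6 of the 12 fits without 1 sample. It was also lost where genes were filtered on the mean over both groups (-0.34, adjusted p = 0.12). With library size alone the difference was 0.14. That scaling gave 9 members higher and none lower, against 7143 and 66 of 14973 genes. Srsf4 differed by 0.54 (standard error 0.20, edgeR adjusted p = 0.051), and by 0.56 (adjusted p = 0.0044) with the replicate number as a block. For Srsf3 the difference was 0.026 (standard error 0.17, edgeR adjusted p = 0.93).

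In human, the difference between HEK293 and HepG2 passed for none of the 10 members, while 3.1% of 16759 genes had a lower and 4.85% a higher change in HEK293. SRSF4 had a difference of 0.64 (standard error 0.21, edgeR adjusted p = 0.0865), and 0.61 (adjusted p = 0.0149) with the replicate number as a block. Without both HEK293 libraries numbered 1, the change of SRSF4 was higher in HEK293 (0.71, adjusted p = 0.0382) and that of SRSF9 lower (-0.59, adjusted p = 0.00935). The same calls came from leaving out HEK293 irradiated replicate 1 alone. Library size alone gave 2 members higher and none lower, against 2895 and 120 of 16759 genes. The members other than SRSF4 had differences between -0.38 and 0.25. Cell type and sequencer cannot be told apart in this pair.

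**Figure D4:**
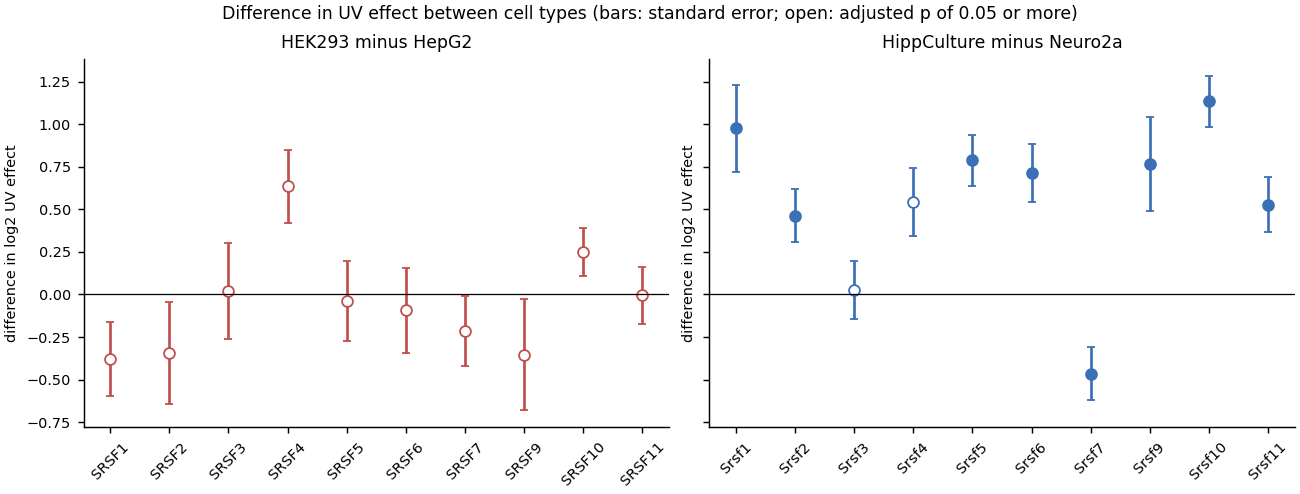
Difference between cell types in the log2 change with UV, for each SR protein mRNA, as HEK293 minus HepG2 and HippCulture minus Neuro2a, with bars of 1 standard error and open symbols where the adjusted p is 0.05 or more. In the mouse pair 7 filled points lie above 0 and that of Srsf7 below it, and in the human pair all points are open.

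Baseline levels were compared in the nonirradiated samples. Between genes they were taken per exon length, as counts scaled by the length of all annotated exons and by the library total (RPKM), with a mean and SD over 3 samples. In HepG2 the order ran from SRSF1 (68.4 ± 8.89) and SRSF2 (55.8 ± 7.25) through SRSF6 (28.1 ± 1.19), SRSF3 (25.1), SRSF5 (24.9), SRSF7 (17.8), SRSF11 (15.9), SRSF9 (14.8) and SRSF10 (14.5) to SRSF4 (5.63 ± 1.14). SRSF1 and SRSF2, SRSF6 and SRSF3, SRSF3 and SRSF5, SRSF7 and SRSF11, and SRSF9 and SRSF10 overlapped in their samples. In HEK293 SRSF1 (142 ± 29.4) and SRSF2 (107 ± 22.6) again led and overlapped. They were followed by the overlapping SRSF7 (63.4) and SRSF3 (56.1), by the overlapping run of SRSF11 (39.9), SRSF9 (39.8), SRSF6 (38.7) and SRSF5 (33.1), by SRSF10 (24.6) and by SRSF4 (7.81 ± 0.612).

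The mouse order was another. Neuro2a had Srsf2 (73.6 ± 6.91), Srsf3 (63.6), Srsf7 (55.5) and Srsf5 (50.9) on top, each overlapping the next, then Srsf10 (45.6) and Srsf1 (41.8), which overlapped, Srsf6 (23.6) and the overlapping Srsf11 (14.2), Srsf4 (13.2) and Srsf9 (10.8 ± 2.37). HippCulture was led by Srsf5 (36.7 ± 3.16), above the overlapping Srsf1 (29.2), Srsf2 (28.5), Srsf7 (28.4) and Srsf3 (26.4). Srsf6 (19.01) and Srsf9 (14.8) came next, and Srsf10 (8.48), Srsf11 (7.88) and Srsf4 (7.80 ± 1.37) overlapped at the bottom. The order depends on the length used: per length of the coding transcript with the longest open reading frame, 7 or 8 of the 10 ranks changed in each cell type.

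**Figure D5:**
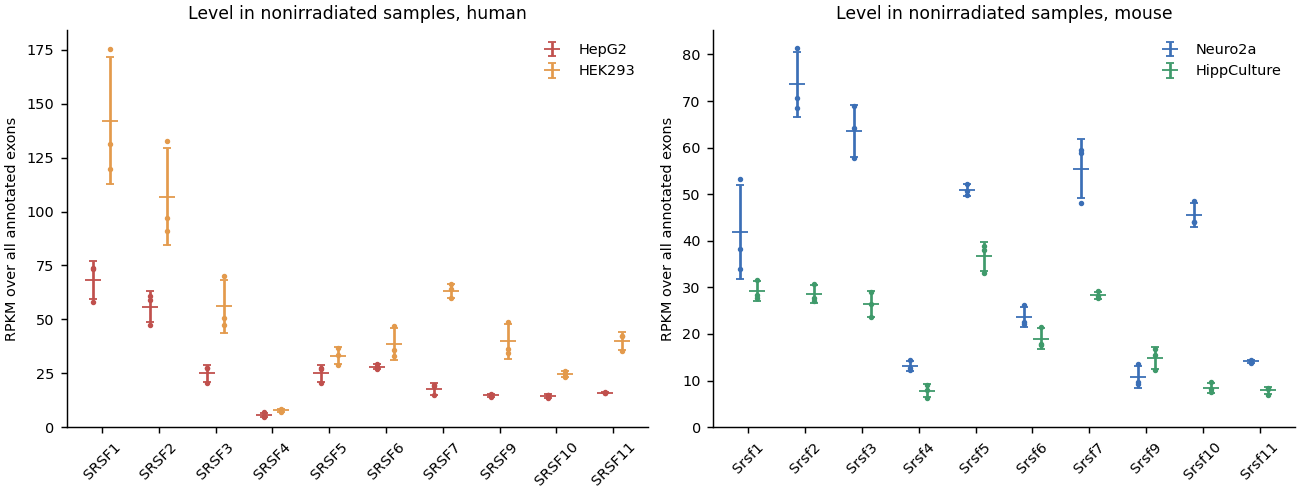
Level of each SR protein mRNA in the nonirradiated samples, as RPKM over all annotated exons, with a point per sample and a line and bars for the mean and SD of 3 samples. SRSF1 and SRSF2 lead in both human lines, and Neuro2a lies above HippCulture for most members, by the largest ratio for Srsf10.

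Between the human lines, 7 members were higher in HEK293 than in HepG2 and none lower, against 37.9% and 37.2% of 21889 genes. SRSF7 differed most, by 1.39 (standard error 0.15, edgeR adjusted p = 9.19e-06) on the log2 scale, followed by SRSF9 (0.98), SRSF11 (0.88), SRSF3 (0.73), SRSF1 (0.62), SRSF2 (0.50) and SRSF10 (0.32). SRSF4, SRSF5 and SRSF6 had differences of 0.027, -0.033 and 0.020, each below its standard error. Leaving out 1 sample left 5 or 6 members higher, and SRSF2 and SRSF10 were the ones lost. Cell type and sequencer cannot be told apart in this comparison either.

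In mouse, 8 members were lower in HippCulture than in Neuro2a and 1 was higher, against 39.3% and 41.3% of 19367 genes. Srsf10 differed most, by -2.29 (standard error 0.090, edgeR adjusted p = 2.74e-13), with 48.6, 44.05 and 44.03 RPKM in the Neuro2a and 9.65, 8.17 and 7.60 RPKM in the HippCulture samples. Srsf2 (-1.22) and Srsf3 (-1.12) followed, then Srsf7 (-0.83), Srsf11 (-0.71), Srsf4 (-0.63), Srsf1 (-0.38) and Srsf5 (-0.34). Srsf9 was the member higher in HippCulture, by 0.58 (standard error 0.14, edgeR adjusted p = 0.00103), and Srsf6 differed by -0.17 (standard error 0.096, edgeR adjusted p = 0.11). The call of Srsf1 was lost without Neuro2a nonirradiated replicate 1 (-0.18, adjusted p = 0.0655), without HippCulture nonirradiated replicate 2 (-0.26, adjusted p = 0.11) and with at least 10 counts in every sample (adjusted p = 0.0728).

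The members differ in the make-up of the transcript with the longest open reading frame. Uridine made up 20.3% (SRSF11) to 33.5% (SRSF10) of the human transcripts, where the median of 15350 protein-coding genes was 24.5%. The 5 members that fell in all 4 cell types spanned that range, and SRSF3 had 31.8% and SRSF7 31.0%. Mouse transcripts differed for some, with 27.8% for Srsf5 and 26.01% for Srsf11, against 23.4% and 20.3% in human. Whether uridine content went with the UV changes was not tested. The 3′ UTR of that transcript, stop codon included, was longer than the median of 1084 bases in 5 human members, up to 3614 in SRSF3 and 6798 in SRSF10, and shorter in the other 5, from 670 in SRSF4 down to 434 in SRSF1, 350 in SRSF9 and 3 in SRSF11, whose annotated transcript ends at the stop codon. Of the 5 that fell in all 4 cell types, SRSF6 and SRSF10 lay above the human median and SRSF1, SRSF5 and SRSF11 below it. The mouse median was 931 bases, and Srsf11 (1539), Srsf6 (2367) and Srsf10 (1792) lay above it. Srsf1 (414) and Srsf5 (528) lay below it. These lengths depend on the transcript chosen, and whether they went with the members' UV changes was not tested.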

How the data were processed

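RNA of the aqueous phase was sequenced from 3 UV-irradiated and 3 nonirradiated samples of each of 4 cell types. Per the labels and the study's methods, ribosomal RNA was removed and TruSeq libraries were made (a stranded kit in the labels, another TruSeq kit in the methods), and reads were mapped with TopHat2 2.1.1 to hg38 or mm10. Per the file headers, the authors counted reads on GENCODE exons with featureCounts (1.5.3 for HepG2, 1.6.1 for the rest), every gene under a read receiving it and no strand or multiple-mapping option being named. The deposited values are raw counts per gene.

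UV and baseline contrasts were fitted with edgeR 4.0.16 (R 4.3.3), using the quasi-likelihood test, TMM and Benjamini-Hochberg adjustment. The adjustment was over all genes with a mean of at least 0.5 CPM in nonirradiated samples, with a threshold of 0.05. UV contrasts were fitted in each cell type alone, and baseline contrasts over the nonirradiated samples of both cell types of a species. Differences between cell types were interaction terms over 12 samples. Standard errors are log2 changes divided by the square root of F. RPKM were computed from the counts, the library total and the union of annotated exons. Symbols, transcripts and exon sequences came from the reference annotation (GENCODE 44 and M21), which matched 98.926% of human and 99.823% of mouse identifiers. Alternatives were DESeq2 1.42.0 as test or for size factors, library size alone, other filters, a replicate block and leaving out each sample. One more, without both HEK293 libraries numbered 1, was chosen after seeing the data. Samples correlated best with the sample of their own number in HEK293 (correlations of deviations 0.65, 0.37 and 0.46) and Neuro2a (0.29, 0.10 and 0.15). The same held more weakly in HippCulture (0.137, 0.073 and 0.057), but not in HepG2. The labels give only the number, so a pairing is read from these data.

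Named were all 10 members, 16 genes of the comparison lists and the 3 genes closest to the members' medians, whatever their values. Members and lists were chosen with earlier results of these data known. Fits were tested on simulated data with 200 changed genes. Python 3.11.15 with pandas 2.3.3 and matplotlib 3.10.9 made the tables and figures.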

Additional observations from a re-analysis of the deposited data

Results flagged for a closer look

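For 8 mouse members the UV effect differed between HippCulture and Neuro2a by the test of the interaction itself. The log2 change was higher in HippCulture by 0.98 for Srsf1, 0.46 for Srsf2, 0.79 for Srsf5, 0.71 for Srsf6, 0.77 for Srsf9, 1.14 for Srsf10 and 0.53 for Srsf11, and for Srsf7 the difference was -0.47. Srsf2, Srsf9 and Srsf11 did not pass with DESeq2's size factors or test, and the difference of Srsf7 was 0.14 with library size alone. With 3 samples a group, no single sample could be tested as standing apart.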

How the results depend on the processing

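The direction of the UV effect was kept for SRSF1, SRSF5, SRSF6, SRSF10 and SRSF11 in all 4 cell types under every alternative, and so were the calls of SRSF1, SRSF5, SRSF10 and SRSF11. Among the members, UV calls lost without 1 sample were those of Srsf2, Srsf3 and Srsf6 in HippCulture and of Srsf3 in Neuro2a. Mouse Srsf9 had the fewest reads of the members.

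The results that moved or changed sign are given by setting, as log2 values and as numbers of members and of all genes called. With library size alone, in HepG2 there were 10 members lower, 0 members higher, 15838 genes lower and 1722 genes higher, and the log2 value was -1.24 for SRSF2, -0.79 for SRSF3, -0.57 for SRSF7, -0.71 for SRSF9, -0.99 for CLK3, -1.20 for TRA2B, -0.57 for HNRNPA1 and -1.23 for HNRNPK. In HEK293 there were 8 members lower, 11188 genes lower and 1553 genes higher, and the log2 value was -0.35 for SRSF3, -0.35 for SRSF7, -0.65 for SRSF9, -0.23 for HNRNPA1 and -0.60 for SRSF12. In Neuro2a there were 12867 genes lower and 1056 genes higher, and the log2 value was -1.15 for Srsf7, -1.09 for Clk2, -1.004 for Clk3 and -0.92 for Hnrnpa1. In HippCulture there were 9151 genes lower and 1318 genes higher, and the log2 value was -0.28 for Clk2, -0.50 for Clk3 and -0.51 for Hnrnpa1. For the difference between HEK293 and HepG2 there were 2 members higher, 120 genes lower and 2895 genes higher, and the log2 value was 0.054 for SRSF1, 0.074 for SRSF2, 0.39 for SRSF5, 0.33 for SRSF6, 0.21 for SRSF7, 0.054 for SRSF9 and 0.44 for SRSF11. For the difference between HippCulture and Neuro2a there were 0 members lower, 66 genes lower and 7143 genes higher, and the log2 value was 0.14 for Srsf7. For the human baseline the log2 value was 0.41 for SRSF5. With DESeq2's size factors, in HepG2 the log2 value was -0.00076 for SRSF2, and for the difference between HEK293 and HepG2 the log2 value was 0.018 for SRSF11, and for the difference between HippCulture and Neuro2a there were 4 members higher, and the log2 value was -0.067 for Srsf3. With DESeq2 as the test, in HepG2 the log2 value was -0.00076 for SRSF2, and for the difference between HEK293 and HepG2 there were 899 genes lower, and the log2 value was 0.018 for SRSF11, and for the difference between HippCulture and Neuro2a there were 4 members higher, and the log2 value was -0.068 for Srsf3. With every gene that had a count, in HEK293 there were 2 members higher, and in Neuro2a the log2 value was -0.037 for Srsf7, and in HippCulture the log2 value was -0.0052 for Hnrnpa1. With at least 10 counts in every sample, in HepG2 the log2 value was -0.20 for SRSF2, -0.16 for TRA2B and -0.19 for HNRNPK, and in Neuro2a the log2 value was -0.093 for Srsf7 and -0.029 for Clk2, and in HippCulture the log2 value was -0.025 for Clk3 and -0.059 for Hnrnpa1, and for the human baseline there were 5384 genes higher, and the log2 value was -0.10 for SRSF4 and -0.11 for SRSF6, and for the mouse baseline there were 4905 genes lower and 4950 genes higher. With the filter on the mean over both groups, in HepG2 the log2 value was -0.018 for SRSF2 and -0.0093 for HNRNPK, and for the difference between HEK293 and HepG2 the log2 value was -0.036 for SRSF3, and for the difference between HippCulture and Neuro2a there were 0 members lower and 708 genes lower. Without both HEK293 libraries numbered 1 (chosen after seeing the data), in HEK293 there were 2 members higher, and the log2 value was -0.082 for SRSF9 and 0.0080 for CLK3, and for the difference between HEK293 and HepG2 there was 1 member lower, 1 member higher and 1142 genes lower, and the log2 value was -0.014 for SRSF3 and 0.025 for SRSF11. The cause of these moves was not tested.

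When 1 sample at a time was left out, values in HepG2 ran from -0.094 to 0.13 for SRSF2, from -0.0035 to 0.14 for TRA2B and from -0.085 to 0.11 for HNRNPK. Values in HEK293 ran from 0 to 1 for the number of members higher, from -0.29 to 0.40 for SRSF9, from -0.10 to 0.027 for CLK3 and from -0.15 to 0.016 for TRA2B. Values in Neuro2a ran from -0.092 to 0.12 for Srsf7. Values in HippCulture ran from 5 to 9 for the number of members lower, from -0.064 to 0.076 for Srsf4, from -0.020 to 0.29 for Clk3 and from -0.17 to 0.13 for Hnrnpa1. Values for the difference between HEK293 and HepG2 ran from 0 to 1 for the number of members lower, from 0 to 1 for the number of members higher, from 236 to 1034 for the number of genes lower, from 500 to 895 for the number of genes higher, from -0.23 to 0.23 for SRSF3, from -0.18 to 0.15 for SRSF5, from -0.34 to 0.091 for SRSF6 and from -0.12 to 0.095 for SRSF11. Values for the difference between HippCulture and Neuro2a ran from 0 to 1 for the number of members lower, from 4 to 8 for the number of members higher and from -0.092 to 0.16 for Srsf3. Values for the human baseline ran from -0.094 to 0.19 for SRSF4, from -0.18 to 0.058 for SRSF5 and from -0.16 to 0.10 for SRSF6.

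With the replicate number as a block, 2 members were higher in HEK293 (SRSF3 and SRSF7) and SRSF2 was lower there, 1 member was higher for the difference between HEK293 and HepG2, and all genes called in that difference were 2083 lower and 1445 higher. Srsf4 passed in the mouse difference, and the block changed no other call of a member in the 6 fits where it was tried. Of the other named genes, it brought SRRM2, TRA2A, UPF1 and HNRNPK past the threshold in HEK293, Clk3 in Neuro2a (0.19, adjusted p = 0.0351) and Upf1 in HippCulture. In every cell type the labels give only a number, so a pairing is not known from the design. In HepG2 and HippCulture the block left the members' counts at 6 lower and 3 higher, and at 8 lower. In HEK293, Neuro2a and HippCulture every sample correlated best with its own number, a hint from the data. No paired analysis was possible for the baseline levels because they compare different cell types.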
